A study of Mus musculus with 12 samples.

Results

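The genes followed here serve oxysterol turnover, liver X receptor signalling and cholesterol export, and were measured in primary mouse aortic smooth muscle cells: Ch25h, Cyp7b1, Nr1h2, Nr1h3, Abca1, Abcg1, Mylip, Apoe, Npc1 and Npc2. They were chosen by symbol, with earlier results of these data known. All 10 of 10 were found among the 55822 Ensembl gene identifiers of the deposited count table. The study exposed these cells, which give the artery wall its tone, to media conditioned by bone marrow-derived macrophages, and RNA was sequenced in 12 libraries, 4 in each of 3 groups. In the IFNγ/LPS CM group the macrophages had been primed overnight with 20 ng/mL interferon gamma, stimulated for 4 h with 100 ng/mL lipopolysaccharide and washed before they conditioned fresh medium. In the naive CM group the macrophages had had neither agent. Both conditioned media held 0.3% FBS and 10 ng/mL M-CSF, a macrophage growth factor, and both were given for 24 h to cells that had been starved for 48 h in 0.3% FBS. The third group is labelled as regular growth medium, whose serum content is not given in the sources used here, so starvation, low serum, M-CSF and macrophage products cannot be told apart in comparisons with it. Genotype, strain, sex and age of the animals are not given either.

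Oxysterols are oxidised forms of cholesterol. They bind the liver X receptors (LXR), nuclear receptors that pair with retinoid X receptors on DNA and raise transcription of genes that move cholesterol out of the cell, while oxysterols also hold back the processing of the factors that drive cholesterol synthesis. In the artery wall this system is best known from lipid-laden macrophages, and smooth muscle cells also load and export cholesterol there.

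The total estimated count per library was 40270540 to 44607657 in IFNγ/LPS CM, 28542613 to 56323683 in naive CM and 28097496 to 61493375 in regular medium. The column names M1 and M0 were read as IFNγ/LPS and naive macrophages, an assumption beyond the labels on which every direction below rests. The titles number the libraries as biological replicates without naming animals or cultures, so p-values refer to the spread among the libraries, which may in part be technical. Values are counts per 1000000 (CPM) after TMM scaling, and tests are edgeR quasi-likelihood F-tests adjusted by Benjamini-Hochberg over 16140 genes, with calls at an adjusted p below 0.05. The 10 smooth muscle markers summed to 257 to 278 CPM in IFNγ/LPS CM, 786 to 878 CPM in naive CM and 1172 to 1303 CPM in regular medium, and Myh11 and Cnn1, defining contractile genes, were below 1 CPM in every group. Of these markers 8 fell and 2 were not called in IFNγ/LPS CM against naive CM. In that comparison 36.1% of all genes tested were called higher and 35.8% lower, shares that stand beside every marker count given here. The 18 macrophage markers summed to 901 to 1013 CPM in IFNγ/LPS CM, 33.3 to 36.7 CPM in naive CM and 33.8 to 35.5 CPM in regular medium. Of the 6 that could be tested between IFNγ/LPS CM and naive CM, 5 rose and 1 fell. Most of the macrophage sum in IFNγ/LPS CM was Mpeg1 (874 CPM, against 0.309 CPM in naive CM). Cd14 averaged 42.9 and 18.7 CPM in these groups, Cd68 6.19 and 1.07, Csf1r 4.62 and 0.203, and Lyz2 0.472 and 0.0785. Mertk went the other way, at 10.4 and 14.6 CPM. Fcgr1 and C1qa had no count in any group, and Ptprc and Adgre1 averaged 0.00724 and 0.0140 CPM in IFNγ/LPS CM. The 6 adventitial fibroblast markers summed to 6714 to 7404 CPM in IFNγ/LPS CM, 1803 to 1957 CPM in naive CM and 1639 to 1909 CPM in regular medium, mostly from Dcn and Ly6a. Of these 3 rose, 2 fell and 1 was not called in IFNγ/LPS CM against naive CM. The 6 endothelial markers summed to 2.36 to 3.17 CPM in IFNγ/LPS CM, 0.831 to 1.05 CPM in naive CM and 0.767 to 1.27 CPM in regular medium, and Tie1 had no count. Most of the endothelial sum in IFNγ/LPS CM was Tek (2.18 CPM, against 0.148 CPM in naive CM). Pecam1 went the other way, at 0.155 and 0.435 CPM. Of the 3 endothelial markers tested between these groups 1 rose, 1 fell and 1 was not called. These marker sums moved together with the gene values below, and their part in those values was not tested. In bulk RNA, fewer cells of a type and less RNA per cell cannot be told apart.

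In IFNγ/LPS CM against naive CM Ch25h and Cyp7b1, which make and consume an oxysterol, the receptor Nr1h2, the exporter Abca1 and the lysosomal pair Npc1 and Npc2 rose, while Mylip fell. That is 6 members higher, 1 lower and 2 not called of the 9 tested, beside 36.1% of all genes tested called higher and 35.8% called lower. The median log2 fold change of the members was 0.84, against 0.004 over all genes tested. Since the members were chosen with earlier results of these data known, these values describe the list and do not test it. The remaining member, Abcg1, had no counts in any library and was not tested. In 8 of the 9 members tested the libraries of the 2 groups did not overlap, as in 69.5% of all genes tested.

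**Figure D1:**
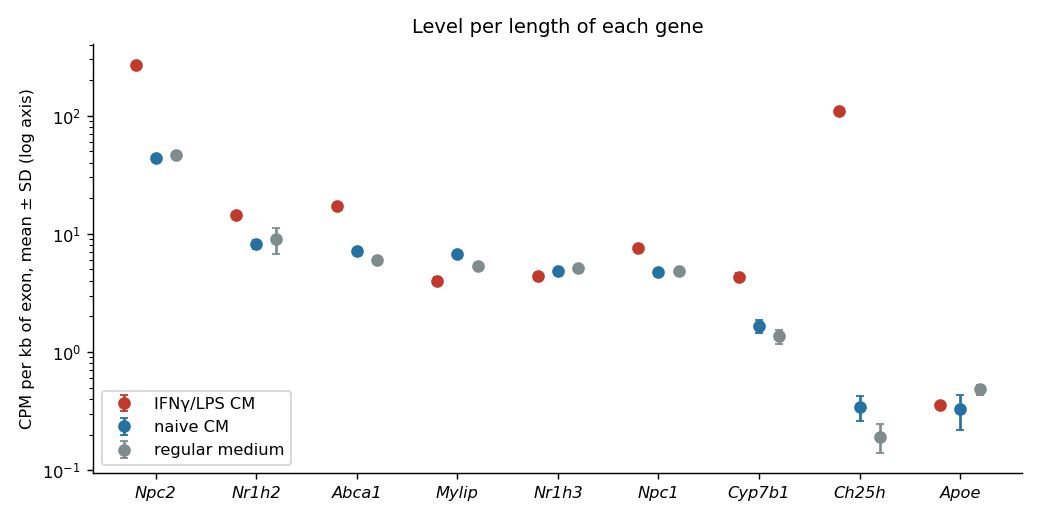
Mean CPM per kilobase of annotated exon (log axis, bars are SD, n = 4 libraries) of the 9 genes with counts, ordered by their level in naive CM, for IFNγ/LPS CM, naive CM and regular medium. Npc2 was the most abundant per length in all 3 groups at 268, 43.8 and 46.6, and Ch25h moved to the second place in IFNγ/LPS CM at 109, against 0.342 in naive CM.

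Scaled to the length of their annotated exons, Npc2 was the most abundant member in each group. The next in IFNγ/LPS CM were Ch25h at 109 CPM per kilobase, Abca1 at 17.2 and Nr1h2 at 14.5. In naive CM they were Nr1h2 at 8.14 CPM per kilobase, Abca1 at 7.10 and Mylip at 6.74, with Ch25h next to last at 0.342. Apoe was the least abundant member with counts in IFNγ/LPS CM (0.356 CPM per kilobase) and in naive CM (0.327), and Ch25h (0.192) was the least abundant in regular medium. The level of Npc1 depended on the length chosen, at 7.60 CPM per kilobase of all exons and 14.9 of the longest transcript in IFNγ/LPS CM. Parts of the order depended on it too. Per kilobase of the longest transcript, Nr1h2 (24.35) stood above Abca1 (17.33) in IFNγ/LPS CM. In naive CM, Npc1 (9.29) then stood above Abca1 (7.17) and Mylip (7.11), and Ch25h (0.342) below Apoe (0.496).

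Ch25h encodes cholesterol 25-hydroxylase, which makes 25-hydroxycholesterol and is known as an interferon-induced gene in macrophages. It lies at chr19:34473778-34475164 on the minus strand of GRCm38 (ENSMUSG00000050370, protein coding). The 250 bases before its start in RefSeq (GRCm38.p6, chr19:34475149-34475398, minus strand) are shown because this was the member that moved most. Capitals mark a cAMP response element, TGACGTCA.

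Ch25h: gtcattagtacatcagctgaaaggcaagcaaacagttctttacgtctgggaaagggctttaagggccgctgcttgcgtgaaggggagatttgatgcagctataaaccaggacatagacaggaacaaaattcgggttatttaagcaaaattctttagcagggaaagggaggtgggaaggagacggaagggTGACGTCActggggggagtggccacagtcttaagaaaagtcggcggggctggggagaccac

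That element ends 54 bases before the start and was found in 1.55% of 32851 such windows of the genome. Neither an interferon gamma activated site (TTCNNNGAA, in 7.02% of windows), an interferon-stimulated response element (GAAA, any 2 bases and GAAA again, in 2.98%) nor the NF-κB consensus (in 7.25%) was found in this window on either strand. These are matches of letters in 250 bases, not measured sites, and the cAMP response element was searched after the sequences were seen.

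Ch25h stood at 154, 152, 138 and 158 CPM in the 4 IFNγ/LPS CM libraries. In naive CM it stood at 0.499, 0.485, 0.321 and 0.593 CPM, from 99 counts in all. In regular medium it stood at 0.292, 0.339, 0.165 and 0.269 CPM, from 58 counts. All 4 IFNγ/LPS CM libraries were far above the other 8, and the ranges of naive CM and regular medium overlapped. The scaled ratio of summed counts of IFNγ/LPS CM over naive CM was 303.8, with an exact 95% interval of 249.4 to 374 that covers counting error only (edgeR adjusted p = 6.943e-23). Among all genes tested, 131 including Ch25h rose at least as far. Over regular medium the ratio was 530.8 (410.4 to 699.2; edgeR adjusted p = 4.935e-23).

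A long noncoding gene, Gm26902, shares 159 bases of exon with Ch25h on the opposite strand, and whether the counting used strand is not given in the sources used here. Gm26902 averaged 11.8 CPM in IFNγ/LPS CM and 0.623 CPM in naive CM (log2 fold change 4.25, SE 0.185, edgeR adjusted p = 8.66e-14). Without that knowledge, reads in the shared stretch cannot be assigned to one gene or the other.

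Cyp7b1 encodes oxysterol 7α-hydroxylase, which inactivates 25- and 27-hydroxycholesterol on the way to bile acids (chr3:18071950-18243338, minus strand; ENSMUSG00000039519). It stood at 9.74, 9.90, 9.65 and 8.35 CPM in IFNγ/LPS CM. Naive CM libraries held 3.02, 3.98, 3.53 and 3.86 CPM, and those of regular medium 2.92, 3.47, 2.57 and 2.79 CPM. The IFNγ/LPS CM libraries did not overlap with either other group, while naive CM and regular medium overlapped. It was 2.61-fold higher in IFNγ/LPS CM than in naive CM (log2 fold change 1.38, SE 0.115, edgeR adjusted p = 1.865e-09). Within a library, Ch25h had 14.3 to 18.9 counts for each count of Cyp7b1 in IFNγ/LPS CM, and 0.0950 to 0.168 in naive CM. The log2 ratio of Ch25h over Cyp7b1 averaged 4.00 ± 0.170 in IFNγ/LPS CM and -2.92 ± 0.371 in naive CM (SD, n = 4 each). This ratio does not depend on how libraries are scaled. The exact permutation test of the difference, two-sided, reached the smallest p that 4 against 4 libraries allow, 0.0286, and 0.0429 after adjustment over 9 ratio tests.

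**Figure D2:**
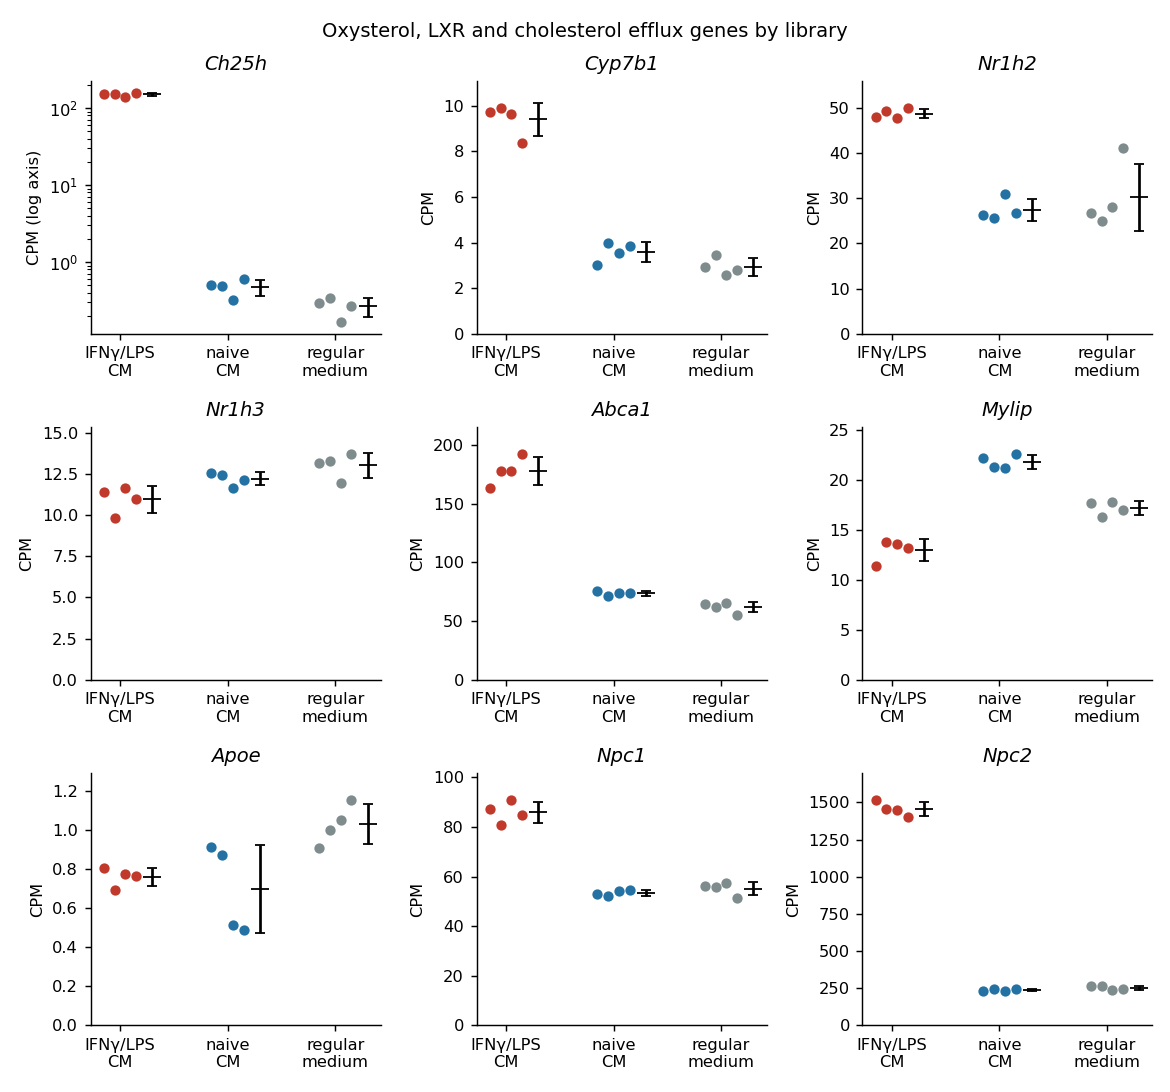
CPM of the 9 genes with counts in each of the 4 libraries of IFNγ/LPS CM, naive CM and regular medium (points; the black mark and bar are the mean ± SD), with a log axis for Ch25h and linear axes from 0 for the others. Ch25h, Cyp7b1, Nr1h2, Abca1, Npc1 and Npc2 were higher in all 4 IFNγ/LPS CM libraries than in any naive CM library, and Mylip was lower.

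Nr1h2 and Nr1h3 encode the receptors LXRβ and LXRα. LXRβ is made in most tissues, and LXRα mainly in liver, intestine, fat and macrophages. Nr1h2 (chr7:44549616-44553951, minus strand; ENSMUSG00000060601) stood at 48.0, 49.2, 47.6 and 49.9 CPM in IFNγ/LPS CM. In naive CM it stood at 26.2, 25.5, 30.8 and 26.7 CPM, and in regular medium at 26.6, 24.8, 28.1 and 41.1 CPM. IFNγ/LPS CM lay above both other groups, which overlapped, and replicate 4 of regular medium stood above its 3 fellows. Nr1h2 was 1.79-fold higher in IFNγ/LPS CM than in naive CM (log2 fold change 0.84, SE 0.139, edgeR adjusted p = 0.0002138). It was 1.61-fold higher than in regular medium (log2 fold change 0.69, SE 0.138, edgeR adjusted p = 0.0008773).

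Nr1h3 (chr2:91184061-91202834, minus strand; ENSMUSG00000002108) moved little. It stood at 11.4, 9.84, 11.6 and 11.0 CPM in IFNγ/LPS CM. Naive CM gave 12.6, 12.5, 11.7 and 12.2 CPM, and regular medium 13.2, 13.3, 12.0 and 13.7 CPM. The 4 IFNγ/LPS CM libraries were the lowest of the 12, by a narrow margin to replicate 3 of naive CM, while naive CM and regular medium overlapped. Its log2 fold change against naive CM was -0.16 with SE 0.0705, just short of the threshold (edgeR adjusted p = 0.05343). It passed under 8 of 21 settings, over which the adjusted p ranged from 8.349e-07 to 0.194. Among these were the fits without replicate 3 of IFNγ/LPS CM (edgeR adjusted p = 0.0410), of naive CM (0.0443) or of regular medium (0.0441), and without replicate 4 of regular medium (0.0452). Against regular medium it fell by 0.25 on the log2 scale (SE 0.0703, edgeR adjusted p = 0.003518).

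The balance of the receptors therefore differed between the media. Each count of Nr1h3 was matched by 4.09 to 4.99 counts of Nr1h2 in IFNγ/LPS CM, 2.05 to 2.64 in naive CM and 1.86 to 2.99 in regular medium. The log2 ratio of Nr1h3 over Nr1h2 averaged -2.15 ± 0.130 in IFNγ/LPS CM and -1.16 ± 0.168 in naive CM (SD, n = 4 each). That difference of -0.995 had an exact permutation p of 0.0286, two-sided, and 0.0429 after adjustment. Between naive CM and regular medium the ratio differed by 0.03, less than the spread between libraries (exact permutation p = 0.886).

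Abca1 and Abcg1 encode the membrane transporters that hand cholesterol to lipid-poor apolipoprotein A-I and to mature HDL particles. Both are textbook LXR targets. Abca1 lies at chr4:53030787-53159895 on the minus strand (ENSMUSG00000015243). The 250 bases before its start in RefSeq (GRCm38.p6, chr4:53159896-53160145, minus strand) are shown because LXR is known to act on this promoter through a direct repeat spaced by 4 bases (DR4). Capitals mark the best match to that repeat, searched as AGGTCA, any 4 bases and AGGTCA again. The match reads on the other strand and has 3 mismatches.

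Abca1: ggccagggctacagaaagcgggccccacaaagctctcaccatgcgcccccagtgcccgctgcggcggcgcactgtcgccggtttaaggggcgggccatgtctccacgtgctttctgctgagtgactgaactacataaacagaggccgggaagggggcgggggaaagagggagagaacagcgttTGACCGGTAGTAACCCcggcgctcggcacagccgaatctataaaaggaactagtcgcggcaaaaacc

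The match lies 67 to 52 bases before the start. With 3 mismatches allowed, 18.51% of 32851 windows hold such a match. Among the 7 members with a window in RefSeq, 10 windows in all, Abca1 was the one with a match. The number of mismatches was chosen after the sequences were seen, so this match tests nothing.

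Abca1 stood at 163, 178, 178 and 192 CPM in IFNγ/LPS CM. In naive CM it stood at 75.8, 71.0, 73.5 and 74.1 CPM, and in regular medium at 64.6, 62.0, 65.0 and 55.4 CPM. None of the 3 groups overlapped, so the order IFNγ/LPS CM, naive CM, regular medium held in every library. It was 2.42-fold higher in IFNγ/LPS CM than in naive CM (log2 fold change 1.27, SE 0.0537, edgeR adjusted p = 5.167e-14). Naive CM was in turn 1.19-fold above regular medium (log2 fold change 0.25, SE 0.0538, edgeR adjusted p = 0.001116).

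Abcg1 (chr17:31057675-31117988, plus strand; ENSMUSG00000024030) was listed with 0 counts in all 12 libraries. The annotation release behind the counts is not given, so whether reads of this gene could be counted is not known. A count of 0 allows a level of up to 0.0212 CPM in IFNγ/LPS CM, 0.0150 CPM in naive CM and 0.0147 CPM in regular medium, taken as 3 counts over each group and covering counting error only. Without counts of Abcg1, the planned ratio of Abca1 over Abcg1 could not be computed. Adjustment was therefore over the 9 ratio tests that were run and not the 12 planned, and the adjusted p-values depend on that number.

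Mylip encodes IDOL, an LXR-induced ubiquitin ligase that marks lipoprotein receptors such as VLDLR and APOER2 (gene Lrp8) for degradation. It lies at chr13:45389742-45412022 on the plus strand (ENSMUSG00000038175). Mylip stood at 11.3, 13.8, 13.5 and 13.2 CPM in IFNγ/LPS CM. The naive CM values were 22.1, 21.3, 21.1 and 22.6 CPM, and those of regular medium 17.7, 16.3, 17.7 and 17.0 CPM. The groups did not overlap, with naive CM highest and IFNγ/LPS CM lowest. It was 1.68-fold lower in IFNγ/LPS CM than in naive CM (log2 fold change -0.75, SE 0.0654, edgeR adjusted p = 3.832e-09). Relative to regular medium it was 1.27-fold higher in naive CM (edgeR adjusted p = 0.0003046) and 1.32-fold lower in IFNγ/LPS CM (edgeR adjusted p = 1.841e-05).

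Apoe encodes apolipoprotein E, a cholesterol acceptor of lipoprotein particles and an LXR target in macrophages and fat (chr7:19696109-19699188, minus strand; ENSMUSG00000002985). It stood at 0.807, 0.695, 0.776 and 0.767 CPM in IFNγ/LPS CM, from 108 counts in all. Naive CM libraries showed 0.915, 0.874, 0.513 and 0.492 CPM, and those of regular medium 0.910, 1.00, 1.05 and 1.16 CPM. The naive CM libraries spread over a range that took in all 4 of IFNγ/LPS CM, and every regular medium library lay above IFNγ/LPS CM. No comparison passed the test. For IFNγ/LPS CM over naive CM the log2 fold change was 0.11 (SE 0.231, edgeR adjusted p = 0.6926). Over regular medium it was -0.43 (SE 0.223, edgeR adjusted p = 0.09192). With library totals the second of these passed, at -0.82 (edgeR adjusted p = 0.002342).

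Npc1 and Npc2 work together in the lysosome, where the soluble protein NPC2 passes cholesterol to the membrane protein NPC1 for export. Npc2 (chr12:84754562-84773152, minus strand; ENSMUSG00000021242) stood at 1518, 1455, 1450 and 1403 CPM in IFNγ/LPS CM. In naive CM it stood at 229, 245, 233 and 245 CPM, and in regular medium at 263, 264, 239 and 246 CPM. IFNγ/LPS CM was far above both other groups, which overlapped. Npc2 was 6.12-fold higher than in naive CM (log2 fold change 2.61, SE 0.0453, edgeR adjusted p = 3.719e-20). Of all genes tested, 840 including Npc2 rose at least as far.

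Npc1 (chr18:12189692-12236400, minus strand; ENSMUSG00000024413) stood at 87.3, 80.9, 91.0 and 84.8 CPM in IFNγ/LPS CM. For naive CM the values were 52.9, 52.2, 54.1 and 54.7 CPM, and for regular medium 56.0, 55.7, 57.3 and 51.2 CPM. Again IFNγ/LPS CM lay above both other groups and these overlapped. Npc1 was 1.61-fold higher in IFNγ/LPS CM than in naive CM (log2 fold change 0.69, SE 0.0454, edgeR adjusted p = 6.062e-11). Its partner on the other strand, Rmc1, shares 511 bases of exon with it and averaged 51.2 CPM in IFNγ/LPS CM and 41.0 CPM in naive CM, so a part of the reads cannot be assigned without strand.

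Both genes rose, but unequally. Npc2 had 15.9 to 18.0 counts for each count of Npc1 in IFNγ/LPS CM, 4.31 to 4.68 in naive CM and 4.18 to 4.81 in regular medium. The log2 ratio of Npc1 over Npc2 averaged -4.08 ± 0.0775 in IFNγ/LPS CM and -2.15 ± 0.0559 in naive CM (SD, n = 4 each; exact permutation p = 0.0286, two-sided, adjusted 0.0429).

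**Figure D3:**
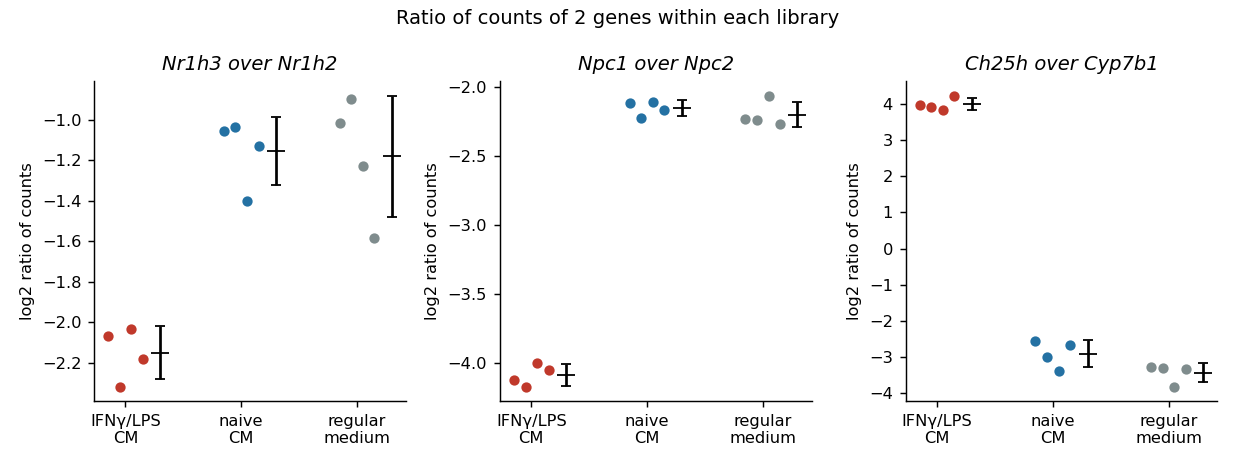
Log2 ratio of the counts of 2 genes within each library (points; the black mark and bar are the mean ± SD) for IFNγ/LPS CM, naive CM and regular medium. In each of the 3 pairs the IFNγ/LPS CM libraries did not overlap with the others, while naive CM and regular medium overlapped.

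Scaling bears on the smaller of these changes. With library totals in place of TMM, the median of all genes between IFNγ/LPS CM and naive CM moved to -0.383 on the log2 scale. Then Nr1h2 stood at 0.45, Npc1 at 0.30, Mylip at -1.14 and Nr1h3 at -0.54 on the log2 scale, Nr1h3 now past the threshold. Apoe turned to -0.28. In this comparison Ch25h, Cyp7b1, Nr1h2, Abca1, Mylip, Npc1 and Npc2 kept their direction and their call with every scaling tried.

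The comparison of naive CM with regular medium gave fewer and smaller changes. Ch25h, Abca1 and Mylip were called higher, none of the 9 tested members was called lower by edgeR and 6 were not called, beside 18.3% of all genes called higher and 16.4% called lower. At an unadjusted p below 0.05, 1 member, Apoe, was lower (log2 fold change -0.54, SE 0.217, edgeR adjusted p = 0.06332). Apoe was called without naive CM replicate 1 (edgeR adjusted p = 0.0344) or replicate 2 (0.0423) and by limma-voom (0.0450), while DESeq2 called 0 members lower. The median log2 fold change of the members was -0.04, against -0.02 over all genes tested. For Ch25h the scaled ratio of summed counts was 1.747 (exact 95% interval 1.251 to 2.459; edgeR adjusted p = 0.004771), from 99 counts in naive CM and 58 in regular medium, and limma-voom did not call it (adjusted p = 0.0668). The libraries did not overlap in 2 of the 9 members, Abca1 and Mylip, beside 32.7% of all genes tested. The log2 fold change of Cyp7b1 was 0.29 (edgeR adjusted p = 0.06909) and passed the threshold without naive CM replicate 1 (edgeR adjusted p = 0.0257) or without regular medium replicate 2 (0.0229). Nr1h2 stood at -0.15 and at 0.04 without regular medium replicate 4, neither past the test.

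The comparison of IFNγ/LPS CM with regular medium uses the same IFNγ/LPS CM libraries as the first one and the same regular medium libraries as the second, so it adds no independent evidence. It called 6 members higher, 2 lower (Mylip and Nr1h3) and 1 not, beside 35.4% of all genes called higher and 36.4% called lower. The median log2 fold change of the members was 0.69, against -0.03 over all genes tested. In all 9 members tested the libraries did not overlap, beside 65.2% of all genes tested. Cyp7b1 was 3.18-fold higher, Abca1 2.88-fold, Npc2 5.75-fold and Npc1 1.56-fold. With library totals Nr1h2 stood at 0.31 and lost its call (edgeR adjusted p = 0.0559), while Apoe passed at -0.82 (edgeR adjusted p = 0.00234).

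**Figure D4:**
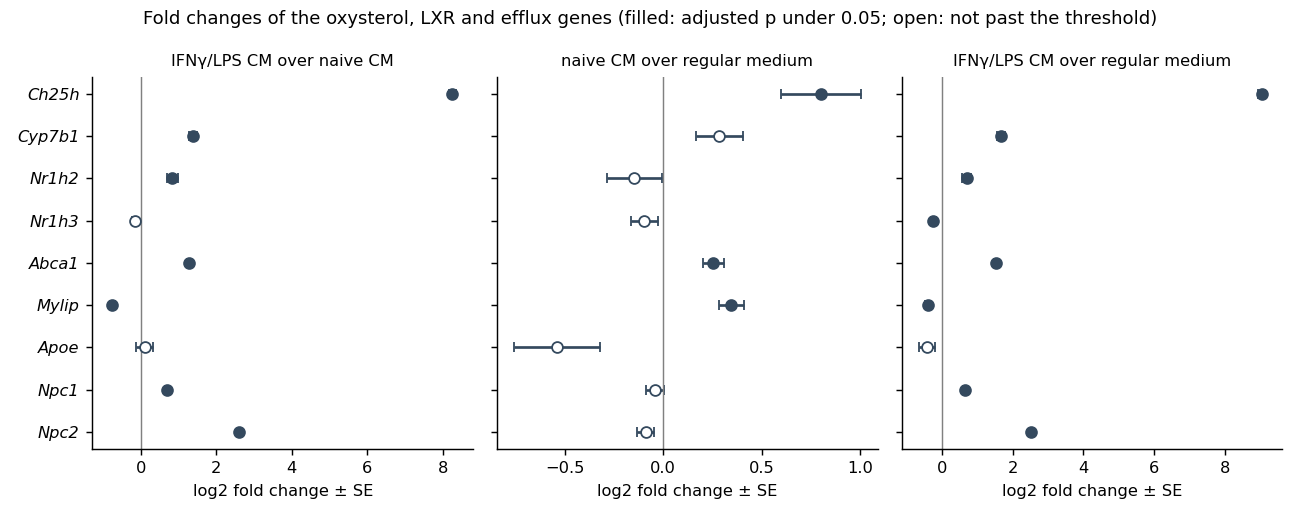
Log2 fold change ± SE of the 9 tested genes in IFNγ/LPS CM over naive CM, naive CM over regular medium and IFNγ/LPS CM over regular medium (filled points have an edgeR adjusted p below 0.05; the 3 panels have different x axes). Ch25h and Npc2 lay farthest from 0 in both panels with IFNγ/LPS CM, and the points of the middle panel run from -0.54 (Apoe) to 0.80 (Ch25h).

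The other genes of the pathway were taken from a list of 48 in 5 roles, of which 38 were tested. That list, too, was chosen with earlier results of these data known. In IFNγ/LPS CM against naive CM 13 rose, 14 fell and 11 were not called, beside 36.1% of all genes tested called higher and 35.8% called lower, so these shares were near those of all genes. The median log2 fold change was -0.07, against 0.004 over all genes tested. With library totals 6 of the list were higher and 26 lower, beside 3279 higher and 9371 lower of the 16140 genes tested.

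Of the oxysterol enzymes and the oxysterol receptor, 1 rose, 3 fell and 1 was not called, and 2 of the 7 could not be tested. Over all genes tested, 36.1% were called higher and 35.8% lower. Gpr183, which encodes EBI2, the receptor for the oxysterol made by CH25H and CYP7B1 in sequence, had no count in any library. Cyp39a1, a 7α-hydroxylase of 24-hydroxycholesterol, stood at 24.9 to 32.5 CPM in IFNγ/LPS CM and 48.4 to 51.0 CPM in naive CM (log2 fold change -0.80, edgeR adjusted p = 2.677e-09). Hsd3b7, the next enzyme of bile acid synthesis, averaged 38.7 CPM in IFNγ/LPS CM and 29.7 CPM in naive CM (log2 fold change 0.38, edgeR adjusted p = 2.553e-07). It shares 1717 bases of exon with Gm49388 on the same strand, so its value is uncertain, and with library totals its log2 fold change was -0.0059.

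Of the LXR partners and coregulators 1 rose, 2 fell and 4 were not called, beside 36.1% of all genes called higher and 35.8% lower. Nrip1, which encodes the coregulator RIP140, averaged 29.6 ± 0.937 CPM in IFNγ/LPS CM and 69.7 ± 1.69 CPM in naive CM (SD, n = 4 each; log2 fold change -1.24, edgeR adjusted p = 6.393e-15). Rxra, a retinoid X receptor, averaged 64.3 CPM in IFNγ/LPS CM and 79.4 in naive CM (log2 fold change -0.30, edgeR adjusted p = 2.182e-05). Rxrb, another such receptor, averaged 30.9 and 31.5 CPM in these groups and was not called (log2 fold change -0.025, edgeR adjusted p = 0.703). Ncoa1, a coactivator of nuclear receptors, averaged 24.8 CPM in IFNγ/LPS CM and 21.2 CPM in naive CM (log2 fold change 0.23, edgeR adjusted p = 0.002742), a direction that turned to -0.16 with library totals. All groups of Ncoa1 stood apart, with regular medium highest at 26.1 to 31.0 CPM.

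Among further LXR targets 1 rose, 5 fell and 2 were not called, beside 36.1% of all genes tested called higher and 35.8% called lower. Another 5 of the 13 LXR targets on the list had too few counts to be tested. The median log2 fold change of those tested was -0.61, against 0.004 over all genes tested. Scd1, a fatty acid desaturase, averaged 120 ± 6.37 CPM in IFNγ/LPS CM and 376 ± 23.1 CPM in naive CM (SD, n = 4 each; log2 fold change -1.65, edgeR adjusted p = 1.912e-11). Fasn, the fatty acid synthase, averaged 88.5 CPM in IFNγ/LPS CM and 209 CPM in naive CM (log2 fold change -1.24, edgeR adjusted p = 3.531e-06). Lpcat3, which remodels phospholipids, averaged 65.8 CPM in IFNγ/LPS CM and 56.4 CPM in naive CM (log2 fold change 0.22, edgeR adjusted p = 0.000447), and turned to -0.17 with library totals. Srebf1, the driver of fatty acid synthesis that LXR is known to raise, averaged 95.8 CPM in IFNγ/LPS CM and 84.6 CPM in naive CM and was not called (log2 fold change 0.18, edgeR adjusted p = 0.234; -0.21 with library totals). It passed in a fit of only the groups compared (edgeR adjusted p = 0.0232) and without regular medium replicate 4 (0.0200).

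Of these LXR targets 4 rose, 2 fell and 2 were not called in naive CM against regular medium, beside 18.3% of all genes tested called higher and 16.4% called lower. Their median log2 fold change was 0.37, against -0.02 over all genes tested. The other roles had medians of -0.03 to 0.05 in this comparison. Over the whole wider list 11 rose, 7 fell and 20 were not called, with a median of 0.03. Scd1 was higher in naive CM, at 376 CPM, than in regular medium, at 196 CPM (log2 fold change 0.94, edgeR adjusted p = 1.539e-07). Fasn (log2 fold change 0.42, edgeR adjusted p = 0.0205) and Lpcat3 (0.45, edgeR adjusted p = 9.04e-07) were higher as well, Fasn losing its call without naive CM replicate 3 (edgeR adjusted p = 0.0514) or regular medium replicate 1 (0.0557). Naive CM stands in both comparisons, so their values for one gene are not independent.

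Of the genes of the lysosome, membrane contact sites and sterol storage 6 rose, 2 fell and 3 were not called. The shares over all genes tested were 36.1% called higher and 35.8% called lower. Soat1, the enzyme that esterifies cholesterol for storage, stood at 304 to 316 CPM in IFNγ/LPS CM and 135 to 149 CPM in naive CM (log2 fold change 1.16, edgeR adjusted p = 1.573e-15). Lamp2, a lysosomal membrane protein, averaged 1018 CPM in IFNγ/LPS CM and 487 CPM in naive CM (log2 fold change 1.06, edgeR adjusted p = 1.279e-13). The genes that fell encode sterol transfer proteins at contact sites of the endoplasmic reticulum, Gramd1a and Osbp. Gramd1a stood at 24.2 to 25.8 CPM in IFNγ/LPS CM and 32.6 to 38.9 CPM in naive CM (log2 fold change -0.47, edgeR adjusted p = 9.854e-07). Osbp averaged 55.8 CPM in IFNγ/LPS CM and 66.7 CPM in naive CM (log2 fold change -0.26, edgeR adjusted p = 2.147e-05).

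Of the acceptors, other exporters and lipoprotein receptors 4 rose, 2 fell and 1 was not called. Beside them, 36.1% of all genes tested were called higher and 35.8% lower. Among the receptors that the Mylip product degrades, Vldlr averaged 384 ± 8.35 CPM in IFNγ/LPS CM and 168 ± 6.72 CPM in naive CM (SD, n = 4 each; log2 fold change 1.20, edgeR adjusted p = 1.205e-14). Lrp8 stood at 14.6 to 15.6 CPM in IFNγ/LPS CM and 10.8 to 14.2 CPM in naive CM without passing the test (log2 fold change 0.30, edgeR adjusted p = 0.05378), which it did under 8 of 21 settings. These are RNA levels, and receptor protein was not measured.

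In naive CM against regular medium Vldlr fell by 0.63 on the log2 scale (168 CPM in naive CM, 260 CPM in regular medium; edgeR adjusted p = 4.921e-09). Lrp8 rose by 0.82 (edgeR adjusted p = 0.000234) in the same comparison. Lrp1, a large endocytic receptor that also takes up lipoproteins, averaged 988 CPM in IFNγ/LPS CM and 572 CPM in naive CM (log2 fold change 0.79, edgeR adjusted p = 0.0001587). Abca7, an exporter related to Abca1, went the other way, at 108 CPM in IFNγ/LPS CM and 171 CPM in naive CM (log2 fold change -0.67, edgeR adjusted p = 2.99e-09).

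**Figure D5:**
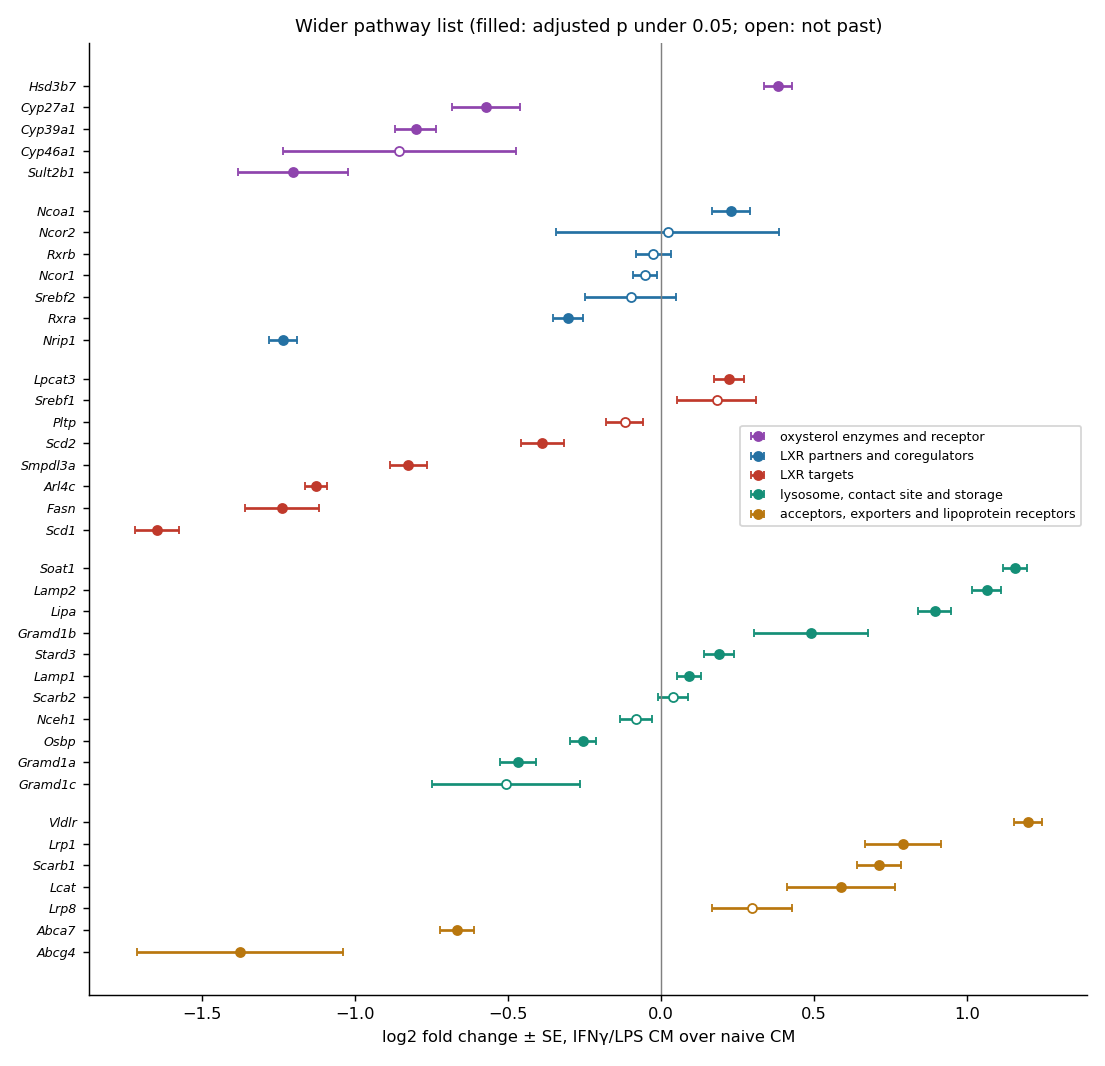
Log2 fold change ± SE in IFNγ/LPS CM over naive CM of the 38 tested genes of the wider list, grouped and coloured by role (filled points have an edgeR adjusted p below 0.05). Scd1 and Fasn lie at -1.65 and -1.24 among the LXR targets, and Vldlr and Soat1 at 1.20 and 1.16.

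The genes whose pattern over the 12 libraries was most like that of a member were found by the root mean square difference of log2 CPM around each gene's mean, among 10661 candidates. For Ch25h they were Ddx60 (0.318), Tgtp1 (0.334) and Slfn2 (0.387). Ddx60 averaged 156 CPM in IFNγ/LPS CM, 0.540 CPM in naive CM and 0.424 CPM in regular medium. For Abca1 they were Ets2 (0.0728), Me2 (0.0825) and Tbc1d1 (0.0842), and Ets2 averaged 230 CPM in IFNγ/LPS CM, 93.2 CPM in naive CM and 78.0 CPM in regular medium. For Nr1h3 they were Dtd2 (0.0602), Rmnd1 (0.0615) and Zscan21 (0.0618). For Apoe the nearest, Amigo1 and Arhgap39, were at 0.218 and Dapk1 at 0.226, farther than the nearest of Abca1 or Nr1h3.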

How the data were processed

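Polyadenylated RNA of 12 libraries was made into stranded libraries and sequenced in paired reads, per the labels' protocols. The table the authors deposited holds estimated counts (expected counts, as whole numbers) for each gene, made with Salmon 1.10.1 on mm10, per the submitters' processing notes. Neither the annotation release nor the summing to genes nor the use of strand is stated there. Identifiers without their version were matched to GENCODE M21 symbols (51344 of 55822, 92.0%), which also gave coordinates on GRCm38, the build of mm10. Identifiers rarely matched with their version (35), so the authors' annotation release differed, and exon overlaps and lengths are those of M21.

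The counts were analysed in R 4.3.3 with edgeR 4.0.16. Genes passing filterByExpr (16140) were scaled by TMM (factors of 0.834 to 0.842 in IFNγ/LPS CM, 1.08 to 1.11 in naive CM and 1.08 to 1.10 in regular medium) and tested two-sided by the robust quasi-likelihood F-test, all 12 libraries sharing 1 model (residual degrees of freedom, 9). Of the 10 members 9 passed the filter. The SE, approximate, divides the log2 fold change by the root of F. For Ch25h, with at most 99 counts in its lower group, a ratio of summed counts with an exact 95% interval is given, which, like the limit of 3 counts for a gene at 0, covers counting error only. Ratios within a library were compared with exact permutation tests. DESeq2 1.42.0, limma 3.58.1 (voom), other scalings and filters, a replicate block and leaving out each library were the alternatives. The model was tested on simulated data in which few genes changed, unlike in these libraries.

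Promoter windows came from RefSeq (GRCm38.p6), which held 7 of the 10 members, and the 250 bases before the start were searched on both strands. The number of mismatches allowed in the DR4 and the search for the cAMP response element were chosen after the sequences were seen. The members and lists were chosen with earlier results of these data known. All members are named. From the wider list the text names, per role, up to 2 called genes with the largest rise and 2 with the largest fall in IFNγ/LPS CM against naive CM with at least 5 CPM, plus Vldlr, Lrp8, Gpr183 and Srebf1, and the 3 nearest patterns of Ch25h, Abca1, Apoe and Nr1h3. 1 gene of that list is left out and not reported here.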

Additional observations from a re-analysis of the deposited data

Results flagged for a closer look

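A single library stood apart from the 3 others of its group (a gap, as a share of the group's range, above Dixon's 95% critical value) in 5 of 78 combinations of gene and group, near the 1 in 20 that chance gives. Cyp7b1 was at 8.35 CPM in replicate 4 of IFNγ/LPS CM, against 9.65 to 9.90 CPM in the others. Lamp2 was at 943.5 CPM in the same library, against 1039 to 1049 CPM. In naive CM, Ncoa1 was at 23.1 CPM in replicate 1, against 20.4 to 20.6 CPM, and Soat1 was at 149 CPM in replicate 4, against 135 to 137 CPM. Osbp was at 77.9 CPM in replicate 3 of regular medium, against 69.5 to 70.6 CPM.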

How the results depend on the processing

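Of 540 alternative values of the members' log2 fold changes, 521 kept direction and call, 14 gained a call, 2 lost one and 3 changed sign. Members lower in IFNγ/LPS CM than in naive CM numbered 2 with library totals, the stricter filter, limma-voom or a fit of only 2 groups, and 1 to 2 when a library was left out. Those lower in naive CM than in regular medium numbered 1 with limma-voom and 0 to 1 when a library was left out. With library totals 6 genes of the wider list were higher and 26 lower in IFNγ/LPS CM than in naive CM, and over all genes 3279 and 9371, or 3279 and 9597 against regular medium. That scaling turned Apoe to -0.28, Hsd3b7 to -0.00588, Ncoa1 to -0.16, Srebf1 to -0.21, Lpcat3 to -0.17, Lrp8 to -0.0903 and Rmc1 to -0.0670 on the log2 scale. Leaving out each library, Apoe ranged from -0.0471 (without naive CM replicate 4) to 0.253 in that comparison, and Nr1h2 from -0.234 to 0.0409 (without regular medium replicate 4) in naive CM over regular medium.

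The numbers in the titles did not pair the libraries: the correlation of same-numbered libraries was -0.0637 to 0.0679 over 12 pairs, and 4 of 12 correlated best with their own number. With a replicate block no call of a member changed. The ratio tests could not pass under that block (differences of -0.995, -1.93 and 6.92 against naive CM and -0.97, -1.88 and 7.44 against regular medium, adjusted exact p = 0.161), since 4 pairs allow no p below 0.125. Nor could they with 3 libraries against 4 (smallest exact p 0.0571). Leaving out each library, Nr1h3 over Nr1h2 differed by -1.08 to -0.94 against naive CM and -1.10 to -0.87 against regular medium, Npc1 over Npc2 by -1.96 to -1.90 and -1.91 to -1.84, and Ch25h over Cyp7b1 by 6.76 to 7.03 and 7.31 to 7.50. Between naive CM and regular medium Nr1h3 over Nr1h2 ranged from -0.107 to 0.121. The cause of these shifts was not tested. Apoe, and Ch25h outside IFNγ/LPS CM, rested on 5 to 68 counts a library, the thinnest depth behind a member tested.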

Other observations

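A few genes of the wider list outside the naming rule were picked after their values were seen. Lipa, the lysosomal acid lipase that frees cholesterol from its esters, stood at 205 to 235 CPM in IFNγ/LPS CM, 116 to 124 CPM in naive CM and averaged 97.1 CPM in regular medium, with no overlap between groups (log2 fold change 0.89 in IFNγ/LPS CM over naive CM, edgeR adjusted p = 1.12e-11). Scarb1, which encodes the HDL receptor SR-BI, averaged 27.4 CPM in IFNγ/LPS CM, 16.8 CPM in naive CM and 13.8 CPM in regular medium (log2 fold change 0.71 over naive CM, edgeR adjusted p = 3.28e-08). Among LXR targets, Arl4c averaged 107 CPM in IFNγ/LPS CM and 234 CPM in naive CM (log2 fold change -1.13, edgeR adjusted p = 7.02e-16). Smpdl3a, which encodes a phosphodiesterase, averaged 20.9 CPM in IFNγ/LPS CM, 37.1 CPM in naive CM and 51.0 CPM in regular medium (log2 fold change -0.83 in IFNγ/LPS CM over naive CM, edgeR adjusted p = 3.32e-10).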
